A study of Mus musculus with 12 samples.

Results

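The genes of the killing machinery of lymphocytes were followed in CD4+ YFP(FOXP3)- T cells from mice whose Treg cells lacked TET2 and TET3. The set held 7 of the 26608 genes in the count tables, chosen by name: the granzymes *Gzma*, *Gzmb*, *Gzmk* and *Gzmm*, the pore protein perforin (*Prf1*), the granule membrane protein *Nkg7* and Fas ligand (*Fasl*). RNA sequencing was performed on 12 libraries, 1 per mouse as far as the sample descriptions show, in 3 groups of 4. WT mice carried Foxp3-Cre with unmodified *Tet2* and *Tet3*, and both DKO groups were Foxp3-Cre Tet2/3 fl/fl, in which YFP-Cre made under *Foxp3* deletes the floxed alleles in cells that have expressed FOXP3. The study divided these mice into DKO-moderate and DKO-severe by how many leukocytes the spleen and lymph nodes held. All mice were 14 weeks old, and CD4+ cells without YFP were sorted from spleen pooled with cervical and inguinal lymph nodes. Cells outside the Treg lineage keep both genes, whereas ex-Treg cells, which once expressed FOXP3 and no longer do, lack them, and the sorted DKO cells are a mixture of both kinds in proportions not given here. Foxp3-Cre is also known to act in some cells that are not Treg cells. An increase in a transcript can therefore come from more cells of a type or from more RNA per cell, which cannot be told apart in bulk RNA.

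Cytotoxic lymphocytes kill in 2 ways. In the granule pathway, perforin opens the target membrane and granzymes, serine proteases kept in the same granules, pass through and cleave proteins inside the target. In the death receptor pathway, Fas ligand on the T cell surface binds Fas on the target and starts a caspase cascade. Most CD4+ T cells make little of either, though a cytotoxic subset, Th1 cells and activated Treg cells can carry granzymes, and granzyme B is also made by NK cells, CD8+ T cells, mast cells and basophils.

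The libraries held 29254260 to 42133536 reads assigned to genes. *Cd4* and *Cd3e* were high in all 12 (*Cd4* 864 to 1368 CPM). CPM are reads of a gene relative to the library's total, scaled by TMM, which evens out the make-up of libraries. *Foxp3*, whose cells the sort removed, was at most 3.10 CPM. *Tet3* averaged lower in DKO-severe than WT (log2 fold change -1.03 ± 0.19 SE, edgeR adjusted p = 0.000859), and *Tet2* did not pass the threshold (0.22 ± 0.15, edgeR adjusted p = 0.234). Counts over a whole gene do not check a deletion of some of its exons. Marker genes of other cells had reads in some libraries. Summed over 10 neutrophil genes, the level was 0 to 2.10 CPM for WT, 0.159 to 8.58 CPM for DKO-moderate and 10.3 to 2249 CPM for DKO-severe. Summed over 7 B cell genes, it was 6.81 to 207 CPM, 19.8 to 47.4 CPM and 68.0 to 374 CPM, in the same order. *Cd8a* was at most 0.273 CPM in 9 libraries but 6.47 CPM in WT 3, 3.15 CPM in DKO-severe 1 and 7.0 CPM in DKO-severe 2. Results that rest on these libraries are also given without them.

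All 7 genes passed the filter on low counts and were tested among 16035 genes. The regions before the start sites of *Gzmb* and *Nkg7*, which rose in both DKO groups, and of *Prf1*, which was not called in any comparison, are shown so that the sequence at the start of genes that rose can be set beside that of a gene that did not. Capitals mark TGTGGT (or ACCACA on the other strand), the core that RUNX factors bind. The sequences are from RefSeq on GRCm38.p6, run 5′ to 3′ in the direction of transcription, and stop before any exon annotated by GENCODE. The start sites are those of RefSeq, and the distance to the GENCODE start differs between the genes. GENCODE starts *Gzmb* at 56262260, *Nkg7* at 43437073 and *Prf1* at 61297833.
Gzmb, chr14:56262335-56262584, minus strand: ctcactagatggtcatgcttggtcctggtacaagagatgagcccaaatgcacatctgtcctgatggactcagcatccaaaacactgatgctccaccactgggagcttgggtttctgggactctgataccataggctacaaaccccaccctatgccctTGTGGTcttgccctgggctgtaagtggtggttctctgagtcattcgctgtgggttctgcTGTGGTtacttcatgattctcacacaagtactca
Nkg7, chr7:43436888-43437072, plus strand: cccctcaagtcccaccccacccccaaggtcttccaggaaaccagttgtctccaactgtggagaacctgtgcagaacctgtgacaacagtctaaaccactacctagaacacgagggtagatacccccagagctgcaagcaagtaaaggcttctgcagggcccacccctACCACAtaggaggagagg
Prf1, chr10:61297586-61297832, plus strand: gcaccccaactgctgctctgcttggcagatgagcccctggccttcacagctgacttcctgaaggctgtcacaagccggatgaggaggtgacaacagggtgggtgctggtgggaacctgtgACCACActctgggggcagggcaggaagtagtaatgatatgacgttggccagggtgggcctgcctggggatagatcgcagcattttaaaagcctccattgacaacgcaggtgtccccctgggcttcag
*Gzmb* held the RUNX core at 2 places, and *Nkg7* and *Prf1* each held it at 1. In windows of 300 bases, from 250 before to 50 after the start, 16.8% of all 32851 RefSeq windows held a RUNX core on either strand. Of the other members, the windows of *Gzma* and of 1 of 2 starts of *Gzmm* held 1 match each, and those of *Gzmk* and *Fasl* held none. A core for T-box factors such as T-bet and Eomes (GGTGTGA, or TCACACC on the other strand) was held by 4.0% of the windows, among them those of *Nkg7*, *Gzmk* and 1 of 2 starts of *Gzmm* but not those of *Gzmb* and *Prf1*. In the *Nkg7* window the matches to both motifs did not overlap, and a match is a description of the sequence only. CG dinucleotides, the sites that TET enzymes act on, numbered 2 in the *Gzmb* window, 3 in that of *Nkg7* and 5 in that of *Prf1*, against a median of 7 over all windows, and 23.3% of windows held 2 or fewer. No methylation was measured here.

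*Gzmb* was the gene with the greatest change among the 7. It encodes granzyme B, which cleaves after aspartate and activates caspases and Bid in the target, and lies on chromosome 14 (56258838 to 56262260, minus strand, mm10). Its level was 1.49, 1.19, 3.45 and 2.65 CPM in WT 1 to 4. In DKO-moderate 1 to 4 it was 12, 36.2, 6.21 and 21.3 CPM, and in DKO-severe 1 to 4 it was 36.6, 129, 97.8 and 25 CPM. Every DKO library was above every WT library, and DKO-severe overlapped DKO-moderate, with 3 of 4 severe libraries above all moderate ones. *Gzmb* rose 32.6-fold in DKO-severe over WT (log2 fold change 5.03 ± 0.70 SE, edgeR adjusted p = 0.000109) and 8.56-fold in DKO-moderate over WT (3.10 ± 0.65, edgeR adjusted p = 0.00731). The call for DKO-moderate was lost in limma voom (2.51, adjusted p = 0.073). The exact permutation test on the CPM gave p = 0.029 for both, the smallest that 4 against 4 libraries allow, or 0.1 after adjustment over the 21 such tests of genes and comparisons. DKO-severe was 3.81-fold above DKO-moderate (1.93 ± 0.59, edgeR adjusted p = 0.039), a call that was lost when only those 8 libraries were fitted (edgeR adjusted p = 0.075). It was also lost in separate fits that blocked on the replicate number (1.84, edgeR adjusted p = 0.0663), with a term for CD8 T cell genes (1.73, 0.0583), with terms for neutrophil and B cell genes (1.03, 0.54), and without any one of WT 4, DKO-moderate 1, 3 or 4, or DKO-severe 2 or 3 (log2 fold changes from 1.52 to 2.02).

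*Nkg7* followed, a membrane protein of cytotoxic granules that promotes their release. The level was 22.8, 33.6, 47.5 and 49.2 CPM in WT 1 to 4. It was 170, 108, 86.0 and 114 CPM in DKO-moderate 1 to 4 and 88.1, 277, 74.4 and 86.2 CPM in DKO-severe 1 to 4. No DKO library overlapped WT, 3 of the severe libraries lay within or below the moderate range, and DKO-severe 2 stood above all others. *Nkg7* rose 3.43-fold in DKO-severe (log2 fold change 1.78 ± 0.42 SE, edgeR adjusted p = 0.00377) and 3.12-fold in DKO-moderate (1.64 ± 0.42, edgeR adjusted p = 0.0186), the latter not called without WT 1 (edgeR adjusted p = 0.0604) or WT 2 (0.0582). Without DKO-severe 2 the change from WT to DKO-severe was 1.14 and still called (edgeR adjusted p = 0.00411). The DKO groups were not called apart (0.14 ± 0.41, edgeR adjusted p = 0.834), and without that library this difference was -0.49 (edgeR adjusted p = 0.209). With terms for the neutrophil and B cell genes, the change from WT to DKO-severe was 1.01 and was no longer called (edgeR adjusted p = 0.305). The neutrophil sums of DKO-severe lay above those of both other groups, so these terms also take up difference between groups. Such a fit cannot separate the part of those cells from the group difference.

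*Gzma*, a trypsin-like granzyme, had 1.26, 1.84, 5.78 and 1.78 CPM in WT 1 to 4. The level was 7.31, 25.5, 6.11 and 6.99 CPM in DKO-moderate 1 to 4 and 7.53, 11.3, 7.16 and 2.63 CPM in DKO-severe 1 to 4. All moderate libraries were above WT, and DKO-severe 4 lay within the WT range. *Gzma* rose 4.30-fold in DKO-moderate (log2 fold change 2.10 ± 0.62 SE, edgeR adjusted p = 0.0367), a call lost without WT 1, WT 2, WT 4, DKO-moderate 2 or DKO-severe 3 (1.35 to 2.10, edgeR adjusted p of 0.0516 to 0.135). For DKO-severe over WT the difference was 1.42 ± 0.61 and was not called in edgeR (adjusted p = 0.0678), though DESeq2 (0.0258) and limma voom (0.0187) called it. Without WT 3, the library with *Cd8a* reads that also held the highest WT level, it was 2.13 and called (edgeR adjusted p = 0.0118), as it was without DKO-moderate 2 (1.42) or DKO-severe 4 (1.73). Without all 3 libraries with *Cd8a* reads, it was 1.59 and not called (edgeR adjusted p = 0.0744). With terms for neutrophil and B cell genes, it was -0.02 (edgeR adjusted p = 0.994).

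**Figure D1:**
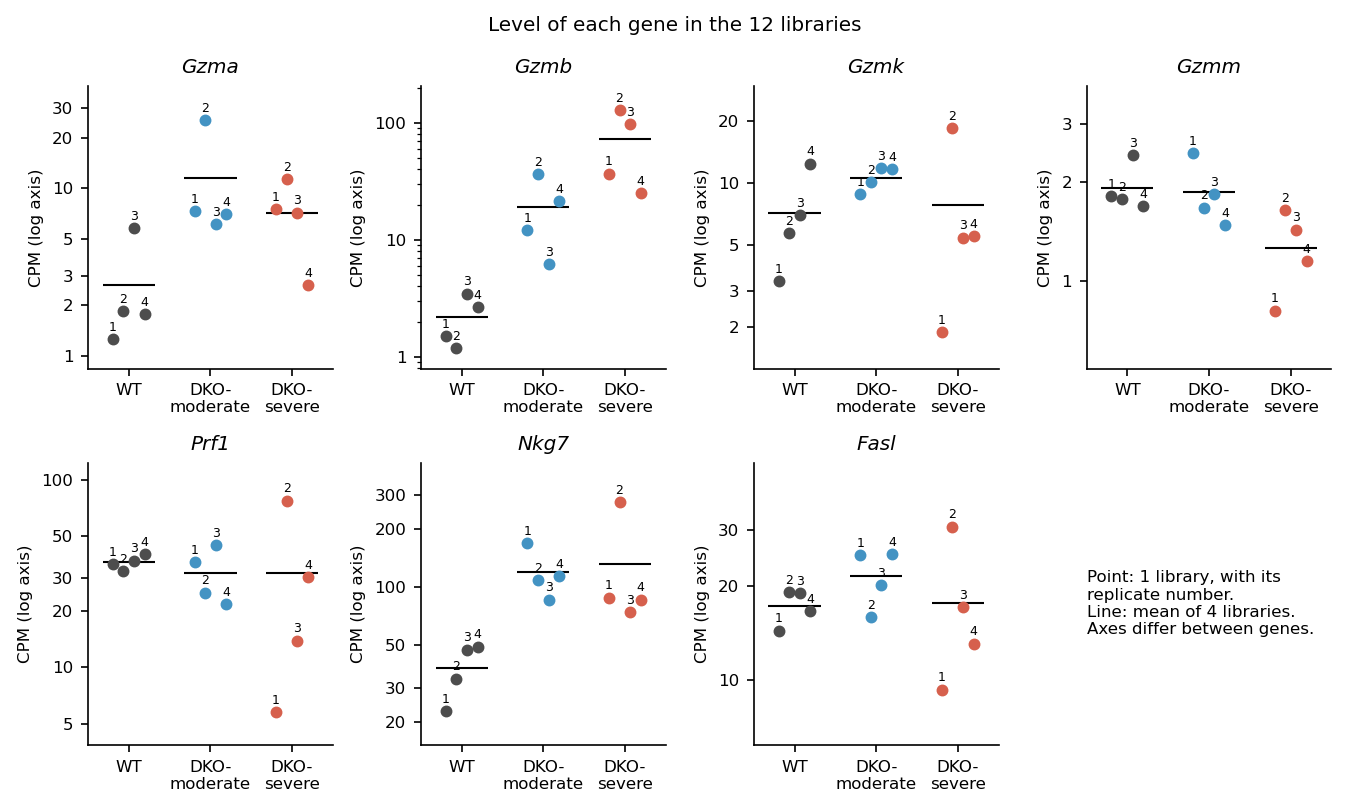
Level of each gene in CPM on log axes, with 1 point per library numbered by replicate and a line at the mean of 4. All 8 DKO libraries lie above the 4 WT libraries for *Gzmb* and *Nkg7*, whereas *Prf1* spans 32.6 to 40.2 CPM in WT and 5.78 to 77.4 CPM in DKO-severe.

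*Gzmk*, the other trypsin-like granzyme, lies 70626 bases from *Gzma* on chromosome 13. Its level was 3.33, 5.71, 6.99 and 12.4 CPM in WT 1 to 4, 8.80, 10.1, 11.8 and 11.7 CPM in DKO-moderate 1 to 4, and 1.88, 18.5, 5.43 and 5.50 CPM in DKO-severe 1 to 4. The 3 groups overlapped, and DKO-severe held both the lowest and the highest library. The log2 fold changes over WT were 0.14 ± 0.55 SE in DKO-severe (edgeR adjusted p = 0.846) and 0.58 ± 0.56 in DKO-moderate (edgeR adjusted p = 0.501).

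*Gzmm*, which cleaves after methionine and is best known from NK cells, was the lowest of the granzymes per kilobase in each group. It had 1.81, 1.77, 2.41 and 1.69 CPM in WT 1 to 4, 2.45, 1.67, 1.84 and 1.48 CPM in DKO-moderate 1 to 4, and 0.811, 1.64, 1.43 and 1.15 CPM in DKO-severe 1 to 4. The severe libraries all lay below WT, the nearest pair being 1.64 and 1.69 CPM. The exact permutation test gave p = 0.029, while the log2 fold change of -0.61 ± 0.28 SE was not called (edgeR adjusted p = 0.087). These values rest on 25 to 92 reads a library.

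*Prf1* was not called in any comparison. Perforin forms the pore through which granzymes enter, and its gene lies on chromosome 10 (61297833 to 61304680, plus strand, mm10). The level was 35.5, 32.6, 37.1 and 40.2 CPM in WT 1 to 4. It was 36.4, 25, 44.7 and 21.7 CPM in DKO-moderate 1 to 4 and 5.78, 77.4, 13.9 and 30.4 CPM in DKO-severe 1 to 4. The highest WT library was 1.23 times the lowest, against 2.06 times in DKO-moderate and 13.4 times in DKO-severe. Neither DKO-severe (log2 fold change -0.19 ± 0.57 SE, edgeR adjusted p = 0.792) nor DKO-moderate (-0.19 ± 0.56, edgeR adjusted p = 0.849) was called against WT. DKO-severe 2 held the high value, and without it the difference from WT was -1.09 (edgeR adjusted p = 0.0555).

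*Fasl*, the ligand of the death receptor pathway, had 14.4, 19.1, 18.9 and 16.6 CPM in WT 1 to 4. The level was 25, 15.9, 20.1 and 25.2 CPM in DKO-moderate 1 to 4 and 9.35, 30.8, 17.1 and 13.1 CPM in DKO-severe 1 to 4. All 3 groups overlapped, and DKO-severe 2 was again the highest and DKO-severe 1 the lowest. The log2 fold changes over WT were 0.03 ± 0.30 SE in DKO-severe (edgeR adjusted p = 0.945) and 0.32 ± 0.30 in DKO-moderate (edgeR adjusted p = 0.485). Without DKO-severe 2, *Fasl* fell from DKO-moderate to DKO-severe (-0.67, edgeR adjusted p = 0.0477), against -0.29 with it (edgeR adjusted p = 0.498).

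Counted over the 7 genes, 2 were called in DKO-severe against WT, both higher, where 52.6% of the 16035 genes were called and 26.6% were called higher. In DKO-moderate against WT, 3 of 7 were called, all higher, where 17.1% of all genes were called and 12.3% were called higher. In DKO-severe against DKO-moderate, 1 of 7 was called, higher, where 20.1% were called and 9.41% were called higher. The share of members called in DKO-severe was thus below that of all genes. The groups did not overlap in CPM for 3 members in DKO-severe against WT (*Gzmb*, *Nkg7* and *Gzmm*), against 51.9% of all genes, and for 3 in DKO-moderate against WT (*Gzma*, *Gzmb* and *Nkg7*), against 24.8%. Between the DKO groups, 21.3% of all genes did not overlap, and every member did. Both comparisons with WT use the same 4 WT libraries, so they are not independent of each other. Of the members not called higher in DKO-severe against WT, *Gzma*, *Gzmk* and *Fasl* had a log2 fold change above 0 and *Gzmm* and *Prf1* one below 0.

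**Figure D2:**
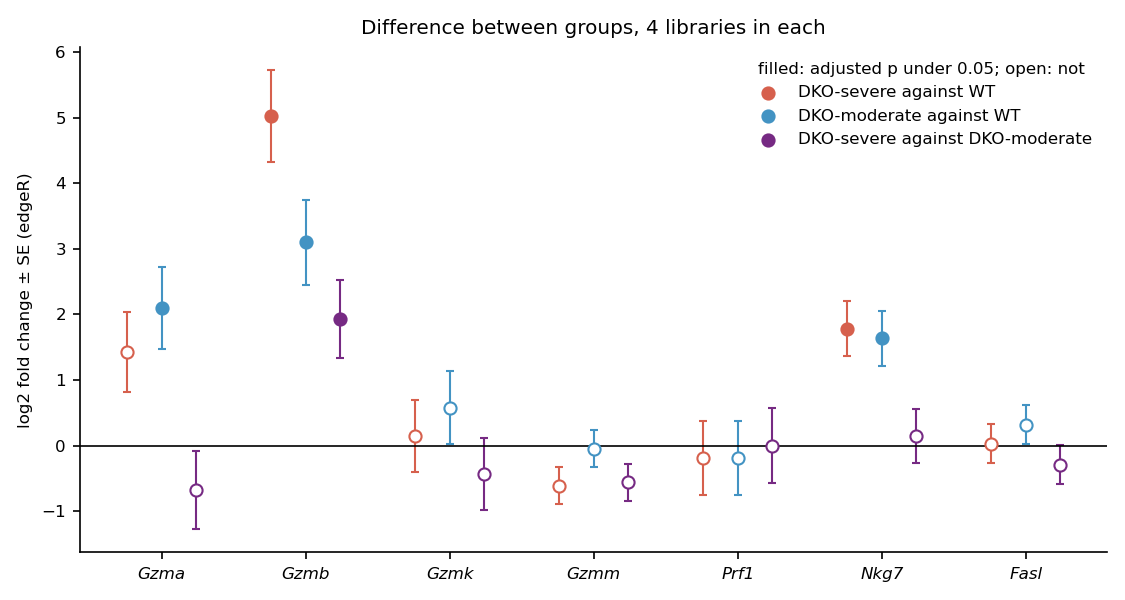
Log2 fold change of each gene with its standard error for 3 comparisons of 4 libraries each (vertical axis), filled where edgeR's adjusted p was under 0.05. *Gzmb* lies at 5.03, 3.10 and 1.93 and is filled in all 3 comparisons, *Nkg7* is filled in both comparisons with WT, and *Gzma* is filled in DKO-moderate against WT alone.

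Per kilobase of exon, which allows genes to be compared, the order of the levels differed between groups. In WT it was *Nkg7* (mean 41.9 CPM per kilobase), *Prf1* (14.1), *Fasl* (8.91), *Gzmk* (5.11), *Gzma* (2.65), *Gzmb* (1.53) and *Gzmm* (1.31). Each of the first 2 stood above the next gene in every library, and the later neighbours overlapped in range. In DKO-severe, *Gzmb* was second with a mean of 50.2 CPM per kilobase, behind *Nkg7* at 144, and the order went on with *Prf1* (12.3), *Fasl* (9.08), *Gzma* (7.12), *Gzmk* (5.64) and *Gzmm* (0.855). There all neighbours overlapped except *Gzmk* and *Gzmm*. In DKO-moderate, *Gzmb* (13.2), *Prf1* (12.4), *Gzma* (11.4) and *Fasl* (11.1) lay close together below *Nkg7* (131), with *Gzmk* (7.64) and *Gzmm* (1.26) below them.

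The make-up of the granzymes was compared within each library, which does not depend on scaling between libraries. The share of *Gzmb* in the reads per kilobase of the 4 granzymes was 17.6%, 10.4%, 16.2% and 13.5% in WT 1 to 4, 35.5%, 42.7%, 21.4% and 47.5% in DKO-moderate 1 to 4, and 73.1%, 77.7%, 85.0% and 70.3% in DKO-severe 1 to 4. The 3 groups did not overlap: the mean share was 14.4% ± 3.16 (SD, n = 4) for WT, 36.8% ± 11.4 for DKO-moderate and 76.5% ± 6.45 for DKO-severe. Each of the 3 differences had an exact permutation p = 0.029, or 0.049 after Benjamini-Hochberg adjustment over the 12 comparisons of shares, as for every p of 0.029 among the shares below. *Gzmk* held the greatest mean share in WT, 47.8% ± 13.7 (SD, n = 4), and 9.08% ± 5.74 in DKO-severe, without overlap (exact permutation p = 0.029). In DKO-moderate it held 27.1% ± 12.2, which overlapped both. *Gzmm* fell from 13.8% ± 5.37 in WT to 1.73% ± 0.983 in DKO-severe (exact permutation p = 0.029, n = 4). *Gzma* held 24% ± 10.8 of WT reads, 31.5% ± 8.56 of DKO-moderate and 12.7% ± 5.90 of DKO-severe reads, and the DKO groups did not overlap (exact permutation p = 0.029, n = 4). The shares sum to 100% in a library, so a rise of one lowers the others and the comparisons are not independent.

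**Figure D3:**
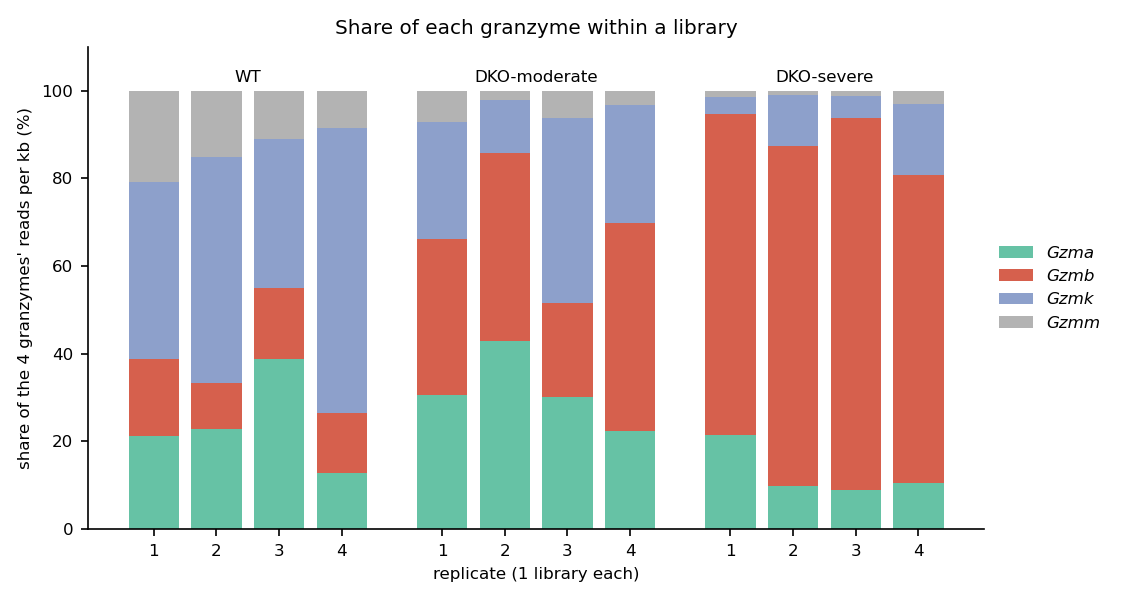
Stacked bars of the share (%) of each of 4 granzymes in their summed reads per kilobase, 1 bar per library. *Gzmb* takes 10.4% to 17.6% of a WT bar and 70.3% to 85.0% of a DKO-severe bar.

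Granzyme B needs perforin to enter a target, so the ratio of *Gzmb* to *Prf1* reads per kilobase was also taken, a measure added after the values were seen. The ratio was 0.0756, 0.0659, 0.167 and 0.119 in WT 1 to 4, 0.595, 2.61, 0.250 and 1.76 in DKO-moderate 1 to 4, and 11.4, 2.99, 12.7 and 1.48 in DKO-severe 1 to 4. Every WT library held less *Gzmb* than *Prf1* per kilobase and every severe library held more, with moderate libraries on both sides of 1. The DKO groups overlapped. Since the ratio sets the gene that rose most against one that was not called, it is given as a description only.

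Among mice of 1 group, the genes were compared by their deviations from the group mean in log2 CPM over 12 libraries. *Gzma* and *Gzmb* varied together with Pearson r = 0.77 (permutation p = 0.0042, 0.0881 after adjustment over 21 pairs) and Spearman rho = 0.73 (permutation p = 0.0178, adjusted 0.374), and r was 0.69 without WT 3 and DKO-moderate 2. *Gzmk* and *Prf1* had r = 0.81 (permutation p = 0.0378, adjusted 0.214) and rho = 0.57 (permutation p = 0.0922, adjusted 0.538), which rested on DKO-severe 1 and 2, since r was 0.11 without them. By the adjusted permutation p of Pearson's r, 0 of 21 pairs passed 0.05, and 3 were under 0.05 unadjusted. *Gzmb* and *Prf1* had r = 0.13 (permutation p = 0.759, adjusted 0.797) and rho = -0.17 (permutation p = 0.664, adjusted 0.775).

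The gene nearest in pattern to each member was sought among 9990 genes with a mean of at least 5 CPM, by Pearson's r of the same deviations over 12 libraries. They were *Slc16a10* for *Gzma* (r = 0.925), *Tcn2* for *Gzmb* (0.926), *Slamf7* for *Gzmk* (0.943), *1190005F20Rik* for *Gzmm* (0.936), *Cerk* for *Prf1* (0.956), *Ccl3* for *Nkg7* (0.922) and *Cnr2* for *Fasl* (0.977). Next came *Dennd4a* for *Gzma* (0.874), *Ptplad1* for *Gzmb* (0.889), *Sbf2* for *Gzmm* (0.932), *Atp13a2* for *Prf1* (0.940), *Ccl4* for *Nkg7* (0.922) and *Gpr34* for *Fasl* (0.946). These are the highest of many correlations over libraries that share depth and cell mixture, and they carry no p.

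Markers of other cells that carry these genes were set beside the results. DKO-severe 3 and 4, with 0.0476 and 0.0239 CPM of *Cd8a*, held 97.8 and 25 CPM of *Gzmb*. Without the 3 libraries with *Cd8a* reads, *Gzmb* was 5.10 (edgeR adjusted p = 0.00102) and *Nkg7* 1.19 (edgeR adjusted p = 0.0148) in DKO-severe against WT on the log2 scale, while *Gzmb* between the DKO groups was 1.70 and no longer called (edgeR adjusted p = 0.111). *Cd8b1* was 16.6 to 20.3 CPM in WT and fell in both DKO groups, to 3.05 to 8.42 CPM in DKO-moderate and 1.01 to 6.15 CPM in DKO-severe. The term for CD8 T cell genes averages *Cd8a* and *Cd8b1*, so it also takes up difference between groups. These markers did not always go together: WT 1 held 18.8 CPM of *Cd8b1* and 0.201 CPM of *Cd8a*, and DKO-severe 2 held 6.15 and 7.0 CPM. The term is thus not a plain measure of CD8 T cells. Of the 9 NK cell genes, 3 were higher in DKO-severe than WT and 6 were not called, and their summed level was 14.0 to 38.6 CPM in WT, 49.6 to 191 CPM in DKO-moderate and 65.5 to 105 CPM in DKO-severe. The 3 were *Klri2* (2.46 ± 0.59 SE, edgeR adjusted p = 0.00413), *Klra7* (2.16 ± 0.81, edgeR adjusted p = 0.0406) and *Klrb1c* (1.68 ± 0.45, edgeR adjusted p = 0.00784). Mean levels in WT and DKO-severe were 0.731 and 4.04 CPM for *Klri2* and 0.153 and 0.694 CPM for *Klra7*. *Klrb1c*, which some T cells also make, was 12.1 to 24.1 CPM in WT and 31.2 to 179 CPM in the DKO libraries. *Ncr1*, which defines NK cells, was not called (edgeR adjusted p = 0.0636). It was at most 1.0 CPM in 11 libraries and 6.07 CPM in DKO-severe 1. Of the 5 mast cell and basophil genes, 3 were higher in each DKO group than WT, with summed levels of 0.0287 to 0.977 CPM in WT, 0.522 to 29.3 CPM in DKO-moderate and 1.59 to 16.3 CPM in DKO-severe. In DKO-moderate, the libraries highest in *Gzmb* (36.2 CPM in DKO-moderate 2 and 21.3 CPM in DKO-moderate 4) held sums of 20.8 and 29.3 CPM, and the others (12 and 6.21 CPM of *Gzmb*) held 0.558 and 0.522 CPM. In DKO-severe 1 to 4 the sums were 16.3, 9.16, 1.59 and 4.76 CPM, where *Gzmb* was 36.6, 129, 97.8 and 25 CPM. Over all tested genes, 26.6% were called higher in DKO-severe and 12.3% in DKO-moderate. With terms for neutrophil and B cell genes, 0 genes of the NK cell list and 0 of the mast cell and basophil list were called in DKO-severe. In DKO-moderate 1 of each list was. Without the 3 *Cd8a* libraries, 4 of 8 NK cell genes and 1 of 5 mast cell and basophil genes were higher in DKO-severe. Of the 4 Treg genes, *Il2ra*, *Ctla4* and *Ikzf2* rose in both DKO groups (*Il2ra* 3.04 ± 0.26 SE in DKO-severe, edgeR adjusted p = 7.13e-06), while *Foxp3* itself fell in DKO-severe (-2.10 ± 0.68, edgeR adjusted p = 0.0205). Their summed level was 52.3 to 115 CPM in WT, 242 to 543 CPM in DKO-moderate and 461 to 652 CPM in DKO-severe, so that every DKO library was above every WT library and the DKO groups overlapped. Monocyte and macrophage genes summed to 6.06 to 173 CPM in WT, 11.7 to 52.6 CPM in DKO-moderate and 79.7 to 475 CPM in DKO-severe. With terms for the neutrophil and B cell genes, *Gzmb* in DKO-severe against WT was 4.06 on the log2 scale (edgeR adjusted p = 0.0183). Of 3 NKT and gamma delta T cell genes tested, 1 was higher in DKO-severe than WT (*Cd163l1*, 1.49 ± 0.54 SE, edgeR adjusted p = 0.0353). In DKO-moderate 0 of them were called. Of 4 plasmacytoid dendritic cell genes tested, 0 were called in either DKO group against WT. The part of all these other cells in the *Gzmb* reads was not tested, nor was that of Treg-like cells.

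Of the 6 other granzyme genes, *Gzmc*, *Gzme* and *Gzmf* passed the low-count filter. *Gzmc* rose in DKO-severe (log2 fold change 2.44 ± 0.67 SE, edgeR adjusted p = 0.00937), with 1.58, 1.32, 1.55 and 1.53 CPM in WT 1 to 4, 17.7, 10.8, 2.74 and 1.51 CPM in DKO-severe 1 to 4 and 1.47 to 6.08 CPM in DKO-moderate. DKO-severe 4 lay within the WT range. The neutrophil sums of DKO-severe 1 to 4 were 2249, 828, 23.9 and 10.3 CPM, in the same order as *Gzmc*, and their part in it was not tested. *Gzmc* was not called with terms for neutrophil and B cell genes or without the 3 *Cd8a* libraries. *Gzmf* had 0 reads in WT and 13 over the 4 DKO-severe libraries, at least 4.0-fold higher against a floor of 3 reads over the WT group (edgeR adjusted p = 0.0331). These genes are close copies of one another, and reads that fit several places were not counted, so the split between them is uncertain.

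The genes that prepare, release and restrain granzymes were counted from lists, beside a median log2 fold change over all tested genes of -0.005 in DKO-severe against WT and 0.0 in DKO-moderate against WT. All 6 serpins that inhibit granzymes or related proteases were higher in DKO-severe than WT, and 3 were in DKO-moderate, where 26.6% and 12.3% of all genes were called higher. With terms for neutrophil and B cell genes 3 and 2 were, and without the 3 *Cd8a* libraries 4 and 3 of 5 were. *Serpinb1a*, which also inhibits neutrophil proteases and was named after its values were seen, was 20.8, 21.3, 3.76 and 3.71 CPM in DKO-severe 1 to 4, high in the libraries with the highest neutrophil sums and otherwise below the 6.38 CPM of WT 3. The list's median log2 fold change was 2.16 in DKO-severe, or 1.97 with *Serpinb1b*, which had no WT read, at its lower bound, and 1.10 in DKO-moderate, or 0.81 likewise. *Serpinb9*, the inhibitor of granzyme B, had the smallest change (log2 fold change 0.69 ± 0.18 SE in DKO-severe, edgeR adjusted p = 0.00654, and 0.57 ± 0.18 in DKO-moderate, edgeR adjusted p = 0.0458). Its level was 20.7 to 28.6 CPM in WT and 29.7 to 54.7 CPM in DKO-severe, without overlap. *Serpinb9b*, an inhibitor of granzyme M, had the greatest called change with reads in WT (5.11 ± 1.67, edgeR adjusted p = 0.022). That value rested on 11.8 CPM in DKO-severe 2 against 0.286 to 0.973 CPM in the other severe libraries. *Serpinb6b*, an inhibitor of granzyme A named after its values were seen, rose in DKO-severe (1.45 ± 0.27, edgeR adjusted p = 0.000785) and in DKO-moderate (1.32 ± 0.27, edgeR adjusted p = 0.00599).

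With terms for neutrophil and B cell genes, the numbers of list genes called higher and lower in DKO-severe against WT were 2 and 0 for granule content, 1 and 1 for exocytosis, 3 and 1 for death receptors, 3 and 0 for substrates and 3 and 1 for transcription factors. Of 9 genes for granzyme processing and granule content, 4 were higher in DKO-severe than WT and 5 were not called (median log2 fold change 0.48), and 2 were higher in DKO-moderate (median 0.26). Over all tested genes, 26.6% were called higher in DKO-severe against WT and 12.3% in DKO-moderate against WT. The tetraspanin *Cd63*, which marks lysosomes and granules, changed most (4.28 ± 1.40 SE, edgeR adjusted p = 0.0223), from a WT mean of 0.194 CPM to 3.87 CPM. The part of cells other than CD4+ T cells in the *Cd63* reads was not tested. *Gnptab*, which tags lysosomal enzymes for sorting, changed least of those called (0.48 ± 0.11, edgeR adjusted p = 0.00269). *Srgn*, the proteoglycan that packs granzymes in granules and a gene named after its values were seen, was 246 to 295 CPM in WT, 499 to 853 CPM in DKO-moderate and 817 to 1081 CPM in DKO-severe. It rose in both DKO groups over WT (1.77 ± 0.18 in DKO-severe, edgeR adjusted p = 1.46e-05). *Ctsc*, the protease that activates granzymes, was not called (0.11 ± 0.24, edgeR adjusted p = 0.704).

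Granule exocytosis genes moved both ways. In DKO-severe against WT, 2 of 12 were higher, 3 were lower and 7 were not called (median log2 fold change 0.09), and in DKO-moderate 2 were higher and 10 were not called (median 0.07). Of all tested genes, 52.6% were called in DKO-severe, with 26.6% higher, and 17.1% in DKO-moderate, with 12.3% higher. These counts thus do not set the list apart. *Stx11*, a syntaxin needed for granule fusion, rose most (3.80 ± 0.40 SE, edgeR adjusted p = 2e-05), from 8.82 to 21 CPM in WT to 85.8 to 215 CPM in DKO-severe, with 30.8 to 79.1 CPM in DKO-moderate. *Sytl1*, a synaptotagmin-like protein that binds RAB27 on granules, fell most (-1.68 ± 0.24, edgeR adjusted p = 0.000135).

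In the death receptor pathway, 4 of 12 tested genes were higher in DKO-severe, 4 were lower and 4 were not called (median log2 fold change -0.02), and 3 were higher in DKO-moderate (median -0.02). By comparison, 52.6% of all tested genes were called in DKO-severe (26.6% higher) and 17.1% in DKO-moderate (12.3% higher). *Tnfsf10*, the ligand TRAIL, which binds another death receptor and was named after its values were seen, rose in DKO-severe (1.58 ± 0.32 SE, edgeR adjusted p = 0.00136), from 33.6 to 45.2 CPM in WT to 71.0 to 197 CPM in DKO-severe, with 44.3 to 100 CPM in DKO-moderate. *Cflar*, which blocks caspase-8 at the receptor, fell most (-0.86 ± 0.16, edgeR adjusted p = 0.000684). *Fas* itself, named here as the receptor of *Fasl* after its values were seen, was 27.4 to 29.7 CPM in WT, 26.0 to 27.6 CPM in DKO-moderate and 11.3 to 20.7 CPM in DKO-severe. It fell in DKO-severe against WT (-0.77 ± 0.15, edgeR adjusted p = 0.00106) and against DKO-moderate (-0.68, edgeR adjusted p = 0.0105). Of 11 known granzyme substrates tested, 3 were higher and 3 lower in DKO-severe (median 0.11) and 3 were higher in DKO-moderate (median 0.10), with *Dffb*, the caspase-activated DNase, falling most (-0.61 ± 0.09, edgeR adjusted p = 0.000185).

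**Figure D4:**
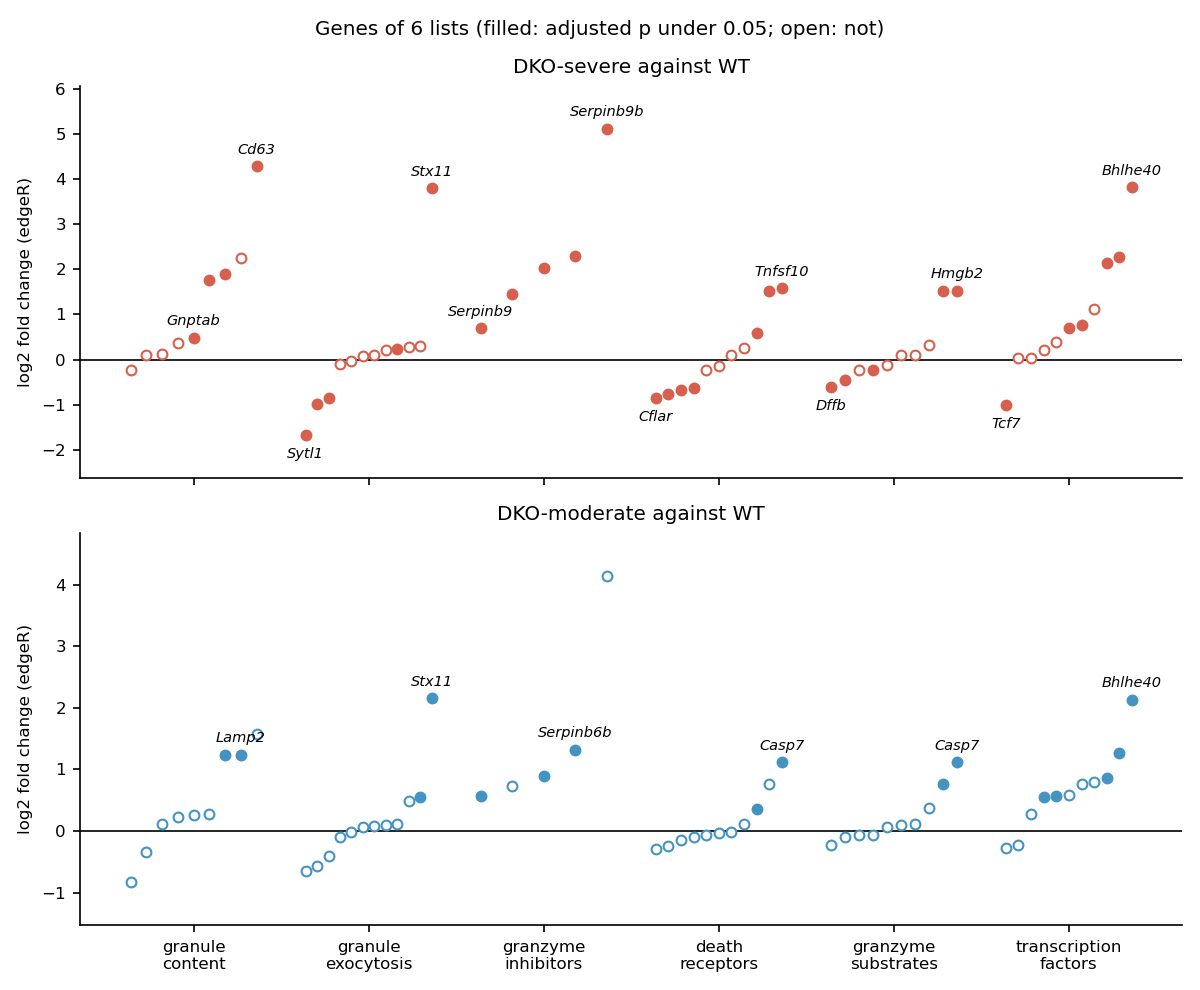
Log2 fold change (vertical axis) of tested genes of 6 lists, in DKO-severe against WT (upper panel) and DKO-moderate against WT (lower panel), ordered within a list and filled where edgeR's adjusted p was under 0.05. Genes with no read in a group are left out, and not every other gene is drawn. In the upper panel all plotted granzyme inhibitors are filled and above 0, from *Serpinb9* at 0.69 to *Serpinb9b* at 5.11, while granule exocytosis runs from *Sytl1* at -1.68 to *Stx11* at 3.80.

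Of 11 transcription factors tied to cytotoxic differentiation, 5 were higher in DKO-severe than WT, 1 was lower and 5 were not called (median log2 fold change 0.69), and 5 were higher in DKO-moderate (median 0.59). Shares over all tested genes were 52.6% called and 26.6% called higher in DKO-severe, and 17.1% and 12.3% in DKO-moderate. *Bhlhe40* rose most (3.82 ± 0.45 SE, edgeR adjusted p = 3.92e-05), and *Tcf7*, which encodes TCF-1 of naive and stem-like T cells, fell (-1.0 ± 0.12, edgeR adjusted p = 4.46e-05). The list also holds *Bcl6*, the Tfh regulator that opposes cytotoxic programmes, which rose (2.27 ± 0.31, edgeR adjusted p = 9.7e-05) and was named after its values were seen. *Tbx21* and *Eomes*, which encode the T-box factors T-bet and Eomes, were not called in DKO-severe. *Eomes* spanned 12.8 to 25.4 CPM in WT and 5.03 to 99.4 CPM in DKO-severe, with DKO-severe 1 lowest and DKO-severe 2 highest, the same libraries that were lowest and highest for *Prf1*, *Gzmk* and *Fasl*. Of 8 genes known from cytotoxic CD4+ T cells, the chemokine *Ccl4* was called higher in DKO-severe (4.62 ± 1.19, edgeR adjusted p = 0.00638) and 7 were not called (median 0.40). With terms for neutrophil and B cell genes 0 of the 8 were called, and without the 3 *Cd8a* libraries 2 were called higher. *Ccl4* was 138 CPM in DKO-severe 2 and 3.26 to 10.9 CPM in the other severe libraries, against 0.316 to 3.33 CPM in WT.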

How the data were processed

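Total RNA of sorted CD4+ YFP(FOXP3)- T cells was made into strand-marking libraries (NEBNext Ultra II Directional) and sequenced as paired reads of 150 bases. The authors aligned reads to mm10 with STAR 2.7.11, kept uniquely mapped reads and counted them per gene with HTSeq, and the deposited values are raw read counts, 1 table per library. The rows for unassigned reads (18.53% to 23.73% of a library) were left out. Genes with at least 10 reads over the 4 libraries of a group were tested with edgeR 4.0.16 (quasi-likelihood F test, TMM scaling, the 3 groups in 1 fit, R 4.3.3), with Benjamini-Hochberg adjustment over the 16035 genes and a threshold of 0.05. On simulated counts for DKO-severe against WT (15636 genes, 200 changed), this recovered 91.5% with 4.7% false calls, DESeq2 94.0% with 25.1% and voom 89.5% with 4.3%. The 200 genes were changed 4-fold, equally often up and down, and every other gene had the same mean in all groups. In the real comparison 52.6% of genes were called, so these rates may not hold for it. Single values were compared by two-sided exact permutation tests of 4 against 4 libraries, and correlations by permuting libraries within groups. CPM are TMM-scaled, log2 CPM used a prior count of 2, and levels per kilobase used exon lengths from GENCODE M21. Alternatives were DESeq2 1.42.0, limma 3.58.1 voom with quality weights, other scalings, filters and thresholds, terms for other cell types, the replicate number as a block, and leaving out each library. Markers behind the cell type terms differed between groups, so a call lost with a term cannot be laid to those cells. A fit without 3 libraries with at least 50 *Cd8a* reads was added after the data were seen. Replicate numbers were not treated as pairs, since same-numbered libraries did not deviate together (median r of -0.034). The members and lists were chosen with earlier results of these data known. Of each list, the genes called in DKO-severe against WT with the greatest and the smallest log2 fold change are named, and most others are marked in the text. *Ctsc*, *Tbx21* and *Eomes* are also named outside this rule, without being called in that comparison. A few genes that this rule names are not reported here. Within a group, counts of any pair of libraries differed well beyond sampling noise (chi-square divided by its degrees of freedom was 22.9 or more). Nothing but the labels says that the libraries are separate mice, so p-values measure the spread between these libraries.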

Additional observations from a re-analysis of the deposited data

Results flagged for a closer look

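Within each group of 4, a library's gap to the next was divided by the range of the group. It was picked out where this was above Dixon's critical value for 4 samples. Chance passes that limit in about 1 in 20 groups if values are normally distributed. The values were CPM without a log, so that rate may not hold here. Over 21 groups (7 genes in 3 groups), 4 libraries were picked out, each the highest of its group. *Gzma* was 5.78 CPM in WT 3, where the other WT libraries held 1.26 to 1.84 CPM. *Gzmm* was 2.41 CPM in the same library, against 1.69 to 1.81 CPM in the others. WT 3 was also the WT library with *Cd8a* at 6.47 CPM and with B cell genes at 207 CPM in sum, where the other WT libraries held at most 0.273 and 15.1 CPM, and the part of those cells in the *Gzma* and *Gzmm* reads was not tested. *Gzma* was 25.5 CPM in DKO-moderate 2, where the other moderate libraries held 6.11 to 7.31 CPM. *Nkg7* was 276.86 CPM in DKO-severe 2, where the other severe libraries held 74.4 to 88.1 CPM, and *Cd8a* was 7.0 CPM in that library.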

How the results depend on the processing

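The values of *Gzmm* rest on 25 to 92 reads a library. Of the called differences from WT, *Gzmb* in DKO-severe was called under every alternative run. Library size alone put the median of all genes at 0.178 (log2) in DKO-severe against WT, against -0.005 with TMM. The count of members called in DKO-severe against WT went from 2 to 1 with terms for neutrophils and B cells (*Nkg7* lost). In DKO-moderate against WT it went from 3 to 1 at an adjusted p under 0.01 and ranged from 1 to 3 when 1 library was left out, being 1 without WT 1 or WT 2. In DKO-severe against DKO-moderate it went from 1 to 2 in voom (*Gzmb* and *Gzmm*), ranged from 0 to 1 when 1 library was left out, and was 0 in edgeR at an adjusted p under 0.01, in a fit of both groups alone, with the replicate block, with the term for CD8 T cell genes and with the neutrophil and B cell terms. In each of these 5 edgeR fits 1 member had an unadjusted p under 0.05, and DESeq2 called 1. Without the 3 *Cd8a* libraries it was 0 in edgeR, with 2 at an unadjusted p under 0.05. The 4 granzymes' share differences in DKO-severe against WT kept their direction with plain reads and without each library, with leave-one-out differences of 59.3 to 64.2 percentage points for *Gzmb* in DKO-severe against WT.

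Signs turned for members that were not called. In DKO-severe against WT, *Gzma* was -0.02 with the neutrophil and B cell terms. *Gzmk* (0.14) was -0.29 in voom, -0.22 with those terms, -0.39 without the 3 *Cd8a* libraries and -0.70 to 0.55 when 1 library was left out. *Prf1* (-0.19) was 0.01 with library size alone, 0.01 with the CD8 term and -1.09 to 0.16 when 1 library was left out. *Fasl* (0.03) was -0.15 in voom, -0.14 without the *Cd8a* libraries and -0.36 to 0.24 when 1 library was left out. In DKO-moderate against WT, *Gzmm* (-0.05) was 0.12 in voom, 0.02 with library size alone, 0.10 with the CD8 term, 0.12 with the neutrophil and B cell terms, 0.08 without the *Cd8a* libraries and -0.21 to 0.08 when 1 library was left out, and *Prf1* (-0.19) was 0.04 in voom and 0.23 with the CD8 term. Between the DKO groups, *Gzma* (-0.68) was -0.97 to 0.07 when 1 library was left out. There *Prf1* (-0.00) was 0.08 in DESeq2, 0.08 with DESeq2 size factors, 0.13 with library size alone, 0.01 with filterByExpr, 0.06 under the filter asking each library of some group for 10 reads, 0.02 in the fit of both groups alone and -0.89 to 0.34 when 1 library was left out. *Nkg7* (0.14) was -0.25 in voom, -0.17 with the CD8 term, -0.69 with the neutrophil and B cell terms, -0.57 without the *Cd8a* libraries and -0.49 to 0.38 when 1 library was left out. With the replicate block, *Gzmk* was -0.08 and *Fasl* -0.04 in DKO-severe against WT, and between the DKO groups *Nkg7* was -0.02 and *Gzmb* 1.84 (edgeR adjusted p = 0.0663). The block changed no other call, and replicate numbers were not taken to pair mice. The cause of these changes was not tested.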
